A study of Homo sapiens with 14 samples.

Results

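The HSF1 and HSF2 peak lists of non-treated mitotic K562 cells were compared region by region. All deposited peaks were kept, 4534 of HSF1 and 19866 of HSF2, which together make 24400 of the 117699 peaks in the 12 peak lists of the series. Both lists come from chromatin immunoprecipitation and sequencing (ChIP-seq) of cells arrested in mitosis and kept at 37 °C without heat. K562 is a human erythroleukemia line. The other HSF lists come from heat-treated mitotic cells (42 °C for 30 min), non-treated cycling cells and heat-treated cycling cells, and each of the 4 conditions also has a list of non-specific IgG. Every group is 1 library made from 10 pooled immunoprecipitations, so no difference between groups could be tested, and all intervals are 95% intervals of counting error alone. The input of mitotic cells that served as control of both lists is labelled as heat-treated. Whether mitotic cells were free of other stages was not measured here.

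HSF1 drives the heat shock response: it is held inactive in unstressed cells and, upon heat, forms trimers that bind heat shock elements in the promoters of chaperone genes. HSF2, a relative of HSF1, binds the same element, can form mixed trimers with HSF1, and is known to mark some promoters during mitosis. Mitotic chromatin is compacted, and many sequence-specific factors are known to be released from it.

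The 4 mitotic libraries that matter here differed in depth. Kept tags, the aligned reads left after duplicate removal, numbered 6164898 for HSF1, 14782391 for HSF2, 2066373 for non-treated mitotic IgG and 17981369 for heat-treated mitotic IgG. Tags in a peak were scaled to 1000000 kept tags of their library (CPM). The lowest tag count in the HSF1 list was 8, equal to 1.30 CPM, against 12 in the HSF2 list, equal to 0.812 CPM, so the lists end at different levels. The IgG lists held 2373 peaks in non-treated and 41184 in heat-treated mitotic cells. A region without a peak in a list may therefore still hold tags there. Regions are given in hg19 by position alone, since no gene annotation of that build was used here.

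HSF1 and HSF2 peaks overlapped by at least 1 bp at 1828 HSF1 peaks, which is 40.3% of the HSF1 list (38.9 to 41.8%, Wilson), and at 1415 HSF2 peaks, which is 7.12% of the HSF2 list (6.77 to 7.49%). The overlap was often partial: 14.5% of HSF1 peaks met an HSF2 peak with 50% reciprocal overlap and 9.77% with summits within 100 bp. A large part of each list also had a mitotic IgG peak: 53.4% of HSF1 peaks (2421) and 28.6% of HSF2 peaks (5681) overlapped a peak of at least 1 of the 2 mitotic IgG lists. Among the shared HSF1 peaks that share was 84.3% (1541 of 1828, 82.6 to 85.9%), against 32.5% (880 of 2706, 30.8 to 34.3%) among the HSF1 peaks without an HSF2 peak. Seen from HSF2, the shares were 84.7% (1198 of 1415, 82.7 to 86.4%) of shared peaks and 24.3% (4483 of 18451, 23.7 to 24.9%) of the others. The intervals did not overlap on either side, but they treat each peak as independent and are no test. Shared peaks were also wider than the others, at a median of 710 against 590 bp in HSF1 and 1323 against 588 bp in HSF2. The part of width in these shares was not tested. Most of the IgG overlap was with the longer list of heat-treated mitotic cells. Of the shared HSF1 peaks, 1065 overlapped that IgG list alone, 101 overlapped the non-treated IgG list alone and 375 overlapped both. With the non-treated mitotic IgG list as the only background, 26% of shared HSF1 peaks had an IgG peak. Of the 2113 HSF1 peaks with no mitotic IgG peak, 287 had an HSF2 peak (13.6%, 12.2 to 15.1%). These 287 make 6.33% of the HSF1 list, and 217 peaks of the same kind make 1.09% of the HSF2 list.

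**Figure D1:**
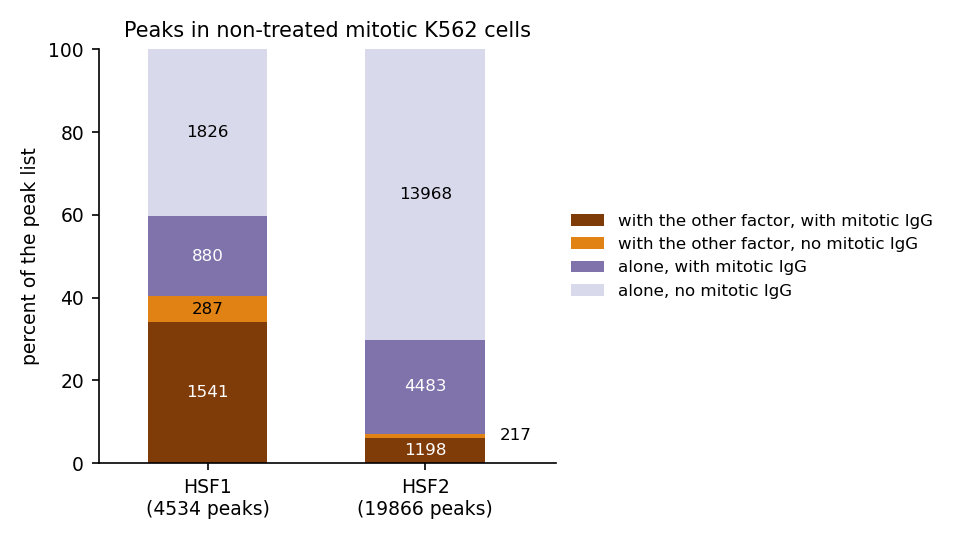
Each bar splits a peak list of non-treated mitotic cells by overlap with the other factor and with either mitotic IgG list, in percent of the list, with the number of peaks printed. Peaks shared by both factors without a mitotic IgG peak are the thinnest band in each bar, 287 of HSF1 and 217 of HSF2.

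The shared set was concentrated on chromosome 22. That chromosome held 744 of the 1828 shared HSF1 peaks (40.7%) and 113 of the 287 without a mitotic IgG peak (39.4%). By comparison it held 166 of the 1826 HSF1 peaks with neither HSF2 nor IgG (9.09%) and 170 of the 13968 such HSF2 peaks (1.22%). The 10 windows of 1 Mb with most shared peaks held 804 of them (44.0%), and 6 of these windows were neighbours on chromosome 22, from 18 to 24 Mb, with 25, 162, 207, 164, 109 and 49 shared peaks in order of position. The other 4 windows were on chromosome 21 from 9 Mb (30 shared peaks), chromosome 1 from 16 Mb (22), chromosome 2 from 91 Mb (18) and chromosome 19 from 37 Mb (18). In each of the 10 windows at least 80.7% of the shared peaks had a mitotic IgG peak. Elsewhere the shared peaks were scattered: of the 430 windows with any, 266 held 1.

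HSF1 peaks on chromosome 22 formed a single dense run, chr22:18461662-23829373, in which neighbouring peaks lay less than 200 kb apart (runs of at least 50 peaks were looked for after the values were seen). The run spans 5.37 Mb and held 1055 HSF1 peaks (23.3% of the list), 766 HSF2 peaks (3.86%), 405 non-treated mitotic IgG peaks (17.1%) and 632 heat-treated mitotic IgG peaks (1.53%). HSF1 peaks numbered 197 per Mb in the run, against 5 in the 1 Mb before it and 3 in the 1 Mb after it. HSF2 peaks numbered 143 per Mb in the run, against 33 in the 1 Mb before it and 10 in the 1 Mb after it. Non-treated mitotic IgG had 75.5 peaks per Mb in the run and 0 on either side. The lists were not spread alike within the run: in the stretches of 0.25 Mb at 4.5, 4.75 and 5 Mb from its start, HSF1 had 49, 38 and 43 peaks, HSF2 18, 9 and 12, non-treated mitotic IgG 56, 80 and 76, and heat-treated mitotic IgG 8, 7 and 8. Within the run 67.9% of HSF1 peaks had an HSF2 peak (65.0 to 70.6%), against 32.0% outside it (30.4 to 33.5%). HSF2 peaks covered 32.7% of the run, and 14.8 Mb over all chromosomes. The part of this coverage in the overlap was not tested.

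The same rule also gave runs on other chromosomes. They were chr1:16832971-17281016 (58 HSF1 peaks, 39 shared with HSF2), chr1:142559635-143493742 (75, 24 shared), chr21:9431541-10215964 (59, 36 shared) and a run on chromosome 9. HSF1 peaks of the chromosome 9 run, chr9:133616721-134155345, covered 47.6% of its 0.539 Mb. It held 92 HSF1 peaks, 12 HSF2 peaks, 144 non-treated mitotic IgG peaks and 12 heat-treated mitotic IgG peaks, and 21 of the HSF1 peaks were shared with HSF2. HSF1 had 1 peak in the 1 Mb before this run and none in the 1 Mb after it, and non-treated mitotic IgG had none in either. By number of peaks, HSF1 and the non-treated IgG were thus dense in the chromosome 9 run, and HSF2 and the heat-treated IgG were less so. HSF2 had 22.3 peaks per Mb there, against 15 in the 1 Mb before it and 12 in the 1 Mb after it. Heat-treated IgG also had 22.3 per Mb, against 48 and 43. HSF2 peaks covered 11.5% of the run, heat-treated IgG peaks 12.8% and non-treated IgG peaks 19.1%. HSF1 of heat-treated mitotic cells was dense in the chromosome 9 and 22 runs as well, with 75 peaks on chromosome 9 and 1056 (21.2% of its list) on chromosome 22. The HSF1 libraries of mitotic cells and the non-treated mitotic IgG were capped at 1 tag per position, and HSF2 of non-treated mitotic cells and the heat-treated mitotic IgG at 2; the part of this cap was not tested. K562 is known to carry an amplified BCR-ABL1 fusion, which joins parts of chromosomes 22 and 9. Copy number was not measured in these files, and its part in the runs was not tested.

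At HSF1 and HSF2 peaks a stand-in for the control was higher in the chromosome 22 run than outside the runs. At non-treated mitotic IgG peaks it was lower in the run. The deposited tag count divided by the deposited fold is a stand-in for the input tags expected at a peak, and it was read over peaks of at most 800 bp. For HSF1 its median was 12.1 tags in the chromosome 22 run (11.8 to 12.5, 593 peaks) and 6.37 tags outside all runs (6.15 to 6.50, 2603 peaks). For HSF2 it was 8.41 tags in the run (7.63 to 8.98, 118 peaks) and 4.91 tags outside (4.88 to 4.94, 17037 peaks). For non-treated mitotic IgG it was 20.8 tags in the run (19.4 to 22.2, 337 peaks). Outside, its interval was higher, at 22.5 to 25.8 tags (1215 peaks). For heat-treated mitotic IgG it was 6.14 tags in the run (5.46 to 6.79, 66 peaks) and 4.73 tags outside (33685 peaks). These lists have the same input, yet the stand-in differed between them in the run, so it depends on the list and not on the input alone. The whole mitotic input averaged 5.68 tags per 400 bp. Shared HSF1 peaks with a mitotic IgG peak outside the runs also stood above the other classes, at 9.43 tags (9.0 to 10.1, 510 peaks), against 5.67 tags (5.44 to 5.71, 1530 peaks) for HSF1 peaks with neither HSF2 nor IgG.

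**Figure D2:**
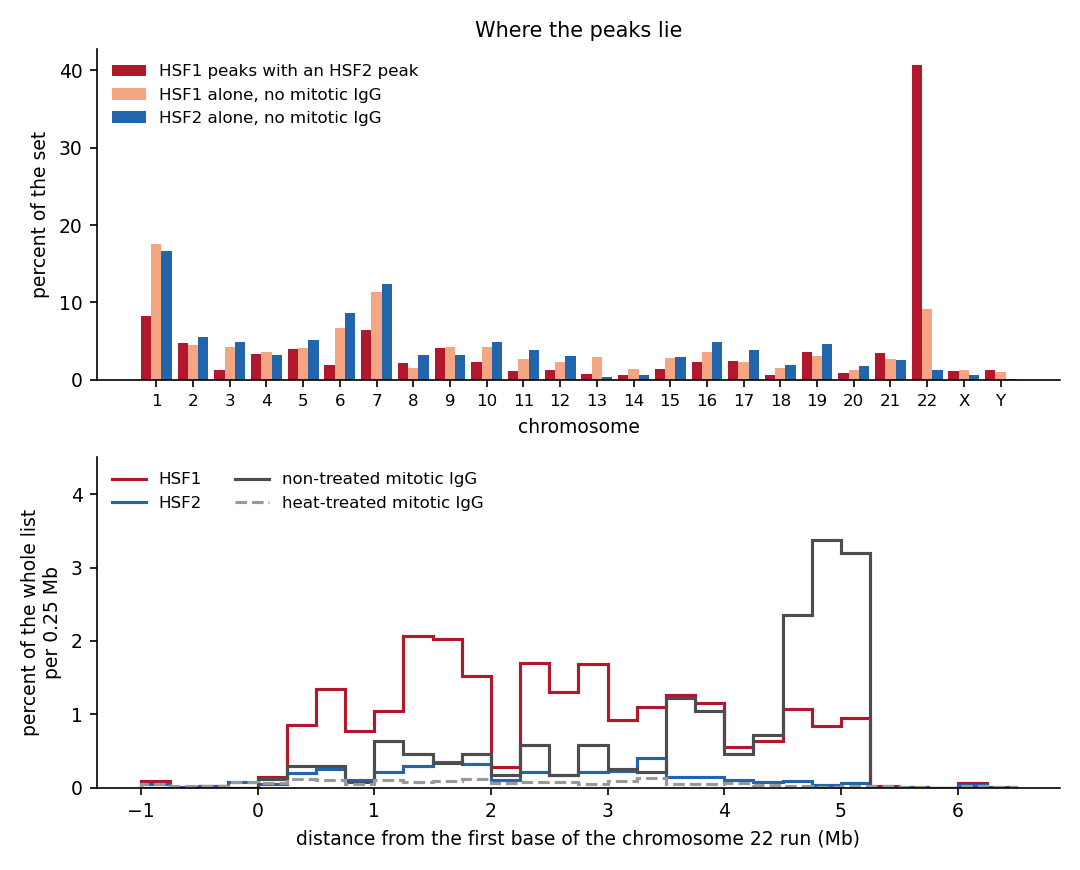
The upper panel gives the percent of 3 sets of peaks on each chromosome; chromosome 22 holds 40.7% of the HSF1 peaks with an HSF2 peak and 1.22% of the HSF2 peaks alone without mitotic IgG. The lower panel gives the percent of 4 whole lists per 0.25 Mb against distance from the first base of the chromosome 22 run, where HSF1 and non-treated mitotic IgG reach 2.07% and 3.37% and all 4 lists fall near 0 past its end.

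The deposited folds of the shared peaks were low. The fold is the deposited ratio of ChIP tags to expected input tags. From the values it appears not to adjust for the 6.22 times (HSF1) and 2.59 times (HSF2) deeper input, which no source used here states, so folds were compared within a list only. Shared HSF1 peaks had a median fold of 0.900, against 1.39 for HSF1 peaks with neither HSF2 nor IgG. A fold under 1 was found in 59.0% of the shared HSF1 peaks and in 48.5% of the whole HSF1 list. Shared HSF2 peaks had a median fold of 2.05, against 2.65 for HSF2 peaks with neither HSF1 nor IgG. In each list the shared peaks thus had more tags and lower folds than the peaks with neither. The median was 12 tags in shared HSF1 peaks, against 8 in HSF1 peaks with neither. It was 50 tags in shared HSF2 peaks, against 13 in HSF2 peaks with neither. HSF1 peaks alone with a mitotic IgG peak also had a low median fold, 0.885, at a median of 11 tags. HSF2 peaks alone with a mitotic IgG peak had a median fold of 2.68, at a median of 14 tags. If the folds are unadjusted, multiplication by the depth factor gives median folds of 6.34 for the whole HSF1 list and 6.79 for the HSF2 list.

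The widths differed as well. The median HSF1 peak in the shared set was 710 bp wide and its HSF2 partner 1803 bp. Of the HSF2 peaks, 320 held at least 2 HSF1 peaks, 192 of them in the chromosome 22 run, and a single HSF2 peak overlapped up to 13. In the opposite direction 96 HSF1 peaks overlapped at least 2 HSF2 peaks. HSF2 peaks with an HSF1 peak had a median width of 2347 bp in the run and 1037 bp outside it, while HSF1 peaks with an HSF2 peak had 744 bp and 688 bp.

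Summits of shared peaks were mostly apart. A peak's summit is its position of most tags. The median distance between the HSF1 summit and the nearest overlapping HSF2 summit was 391 bp (357 to 424, n = 1828), and 443 shared peaks (24.2%) had summits within 100 bp. Peaks without a mitotic IgG peak had a median of 364 bp (301 to 452, n = 287) and 57 within 100 bp (19.9%, 15.7 to 24.9%). In the chromosome 22 run the median was 732 bp (652 to 810) and 8.38% lay within 100 bp. Outside the run the median was 216 bp (187 to 252) and 34.4% lay within 100 bp (31.7 to 37.3%). Outside the run the median was 216 bp with a mitotic IgG peak (n = 935) and 220 bp without one (173 to 276, n = 177).

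Heat-treated cycling cells, in which both factors are known to bind heat shock genes, give a scale for these distances. In non-treated mitotic cells 40.3% of HSF1 peaks had an HSF2 peak, the median summit distance was 391 bp, 24.2% of shared peaks had summits within 100 bp and 84.3% overlapped a peak of a mitotic IgG list. In heat-treated cycling cells 2101 of 6447 HSF1 peaks had an HSF2 peak (32.6%), the median was 40 bp (38 to 42), 76.2% lay within 100 bp and 21.1% overlapped a peak of a cycling IgG list. Heat-treated mitotic cells had 29.0% of HSF1 peaks shared, 504 bp, 23.2% and 83.7%, and non-treated cycling cells had 8.63%, 494 bp, 25.1% and 79.9%. The shares of HSF1 peaks give no order of the conditions, because the HSF2 lists held 19866 peaks in non-treated mitotic, 8270 in heat-treated mitotic, 875 in non-treated cycling and 4315 in heat-treated cycling cells. With HSF2 limited to as many peaks as HSF1, the share in non-treated mitotic cells was 27.6%. Seen from HSF2 the shared peaks were 7.12% in non-treated mitotic, 11.9% in heat-treated mitotic, 39.0% in non-treated cycling and 48.4% in heat-treated cycling cells. The summit distance and the IgG share of non-treated mitotic cells lay nearer to those of heat-treated mitotic and non-treated cycling cells than to those of heat-treated cycling cells. The 5 cycling lists other than non-treated IgG carry another alignment name than the mitotic lists, so cell state and alignment cannot be told apart.

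**Figure D3:**
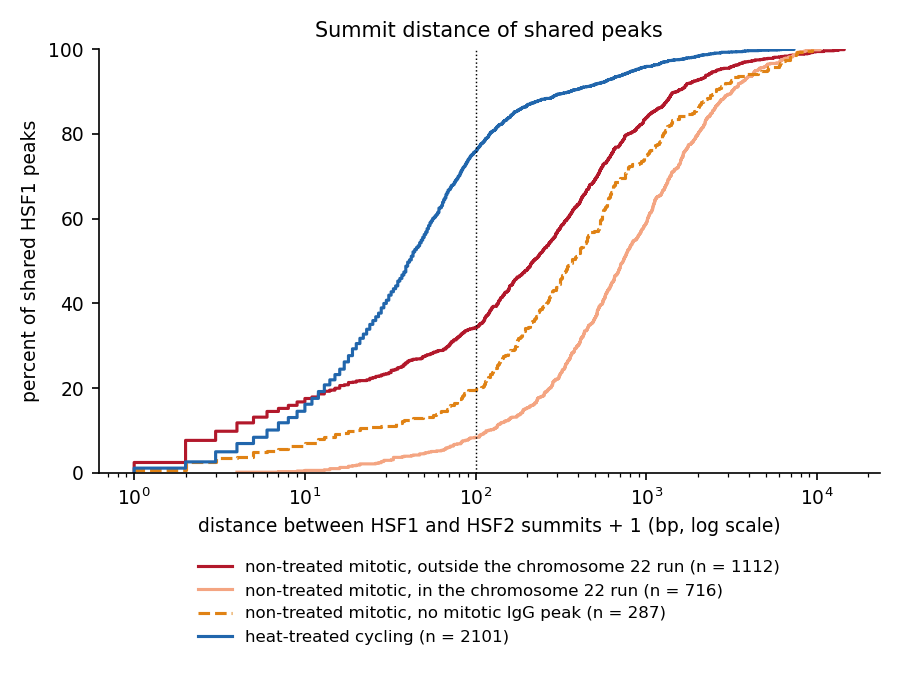
Cumulative percent of shared HSF1 peaks against the distance between HSF1 and HSF2 summits plus 1 bp on a log axis, with a dotted line at 100 bp. The median distance is 216 bp outside the chromosome 22 run, 732 bp in it and 364 bp without a mitotic IgG peak, against 40 bp in heat-treated cycling cells.

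The tag levels of the factors in shared regions depended on how the peaks were drawn. HSF1 had a median of 1.95 CPM and its HSF2 partner 4.8 CPM, and the median log2 ratio of HSF1 over HSF2 was -0.75 (-0.84 to -0.65, n = 1828). HSF1 CPM was at least 2 times that of HSF2 in 40 pairs (2.19%) and at least 2 times lower in 809 (44.3%). Per kb of peak the median log2 ratio was 0.28 (0.26 to 0.30) and no pair was 2 times lower in HSF1. Among the 569 pairs whose widths were within 1.5-fold, the median log2 ratio was 0.19 (0.15 to 0.23), which is 1.14-fold higher in HSF1. The lower HSF1 level of the whole set was thus not seen where the peaks of both factors were about as wide.

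Among these pairs of like width, the ratio was nearest to equality where tags were many. The median log2 ratio was -0.01 (-0.12 to 0.05) in the 50 pairs with at least 100 HSF1 tags and -0.03 (-0.14 to 0.05) in the 43 pairs with 50 to 99. It was 0.10 (0.01 to 0.16) with 20 to 49 HSF1 tags (124 pairs), 0.21 (0.15 to 0.30) with 10 to 19 (177 pairs) and 0.45 (0.35 to 0.52) with 8 or 9 (175 pairs). HSF1 peaks end at 1.30 CPM and HSF2 peaks at 0.812 CPM, and the part of these unequal limits in the pairs with few tags was not tested.

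**Figure D4:**
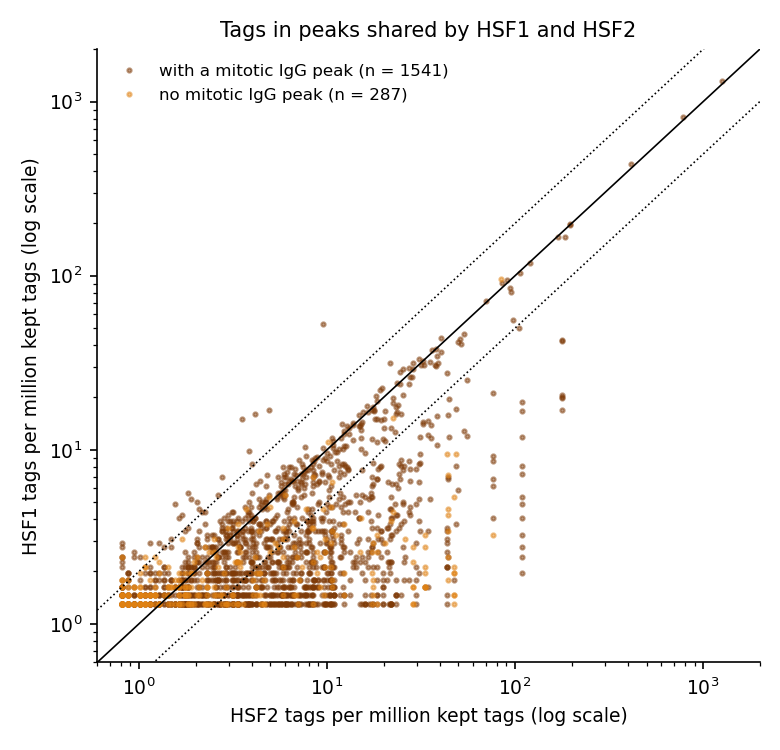
CPM of each of the 1828 shared pairs, HSF1 on the vertical and HSF2 on the horizontal log axis, with and without a mitotic IgG peak; the solid line marks equal values and the dotted lines a 2-fold difference. The regions of most tags lie on the line, at up to 1318 CPM in HSF1 and 1257 CPM in HSF2, and columns of points come from several HSF1 peaks inside the same wide HSF2 peak.

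The 10 shared regions of most HSF1 tags had nearly the same CPM in HSF1 and HSF2, and 9 of them had a peak in both mitotic IgG lists. In 8 of these 9 the non-treated mitotic IgG had more CPM than HSF1. At chr1:564283-570472 HSF1 had 1318 CPM (1289 to 1347, exact Poisson), HSF2 1257 CPM (1239 to 1275), non-treated mitotic IgG 2263 CPM and heat-treated mitotic IgG 1161 CPM. At chr5:134258842-134264604 the values were 815 CPM for HSF1, 779 CPM for HSF2, and 1423 and 735 CPM for non-treated and heat-treated IgG. At chr10:42596536-42602398 they were 437 CPM for HSF1, 414 CPM for HSF2, and 856 and 349 CPM for the IgG libraries in the same order. HSF1 over HSF2 was 1.05 (1.02 to 1.08), 1.05 (1.01 to 1.08) and 1.06 (1.01 to 1.11) at these 3 regions. Tags there were dense against the caps on duplicates, up to 1.31 tags per bp in HSF1 and 2.94 in HSF2 at chr1:564283-570472, and how far the caps of 1 and 2 tags per position set these ratios was not tested. Deposited folds there were 0.47, 0.50 and 0.71 in HSF1 and 1.09, 1.15 and 1.48 in HSF2.

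The next 6 regions, chr5:79945678-79948663, chr5:99381267-99389776, chr11:10529270-10532026, chr21:9825287-9828059, chr4:68263871-68266909 and chr3:96335864-96337518, had 199 to 103 CPM in HSF1. HSF2 CPM differed from these by less than the counting interval in 5 of them. The exception, chr21:9825287-9828059, had 166 CPM in HSF1, 184 CPM in HSF2, 164 CPM in non-treated mitotic IgG and 224 CPM in heat-treated mitotic IgG. Of the 10 regions, only chr17:25262876-25268144 had no mitotic IgG peak, with 95.7 CPM in HSF1 and 84.0 CPM in HSF2 (ratio 1.14, 1.03 to 1.26). Non-treated cycling IgG had a peak there too, at 95.7 CPM.

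Among the 10 HSF1 peaks of highest fold, 8 had an HSF2 peak and 7 had a mitotic IgG peak. The highest, chr2:33141156-33141745, had 16.1 CPM in HSF1 (99 tags, fold 6.71) and 4.13 CPM in HSF2 (61 tags, fold 5.54), a ratio of 3.89 (2.80 to 5.45). Non-treated mitotic IgG had more tags there than either factor, at 64.4 CPM (133 tags, fold 8.41). The second, chr17:31149067-31150057, had 17.5 CPM in HSF1 and 23.3 CPM in HSF2 with a peak in all 12 lists, and mitotic IgG had 16.9 CPM without and 25.4 CPM with heat. The HSF2 peak there has the highest fold of the HSF2 list, 16.9, and the heat-treated mitotic IgG peak has 23.6.

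The third, chr6:31794840-31795637, was a region of another kind. HSF1 had 5.52 CPM (34 tags, fold 5.34) and HSF2 2.64 CPM (39 tags, fold 5.37), a ratio of 2.09 (1.28 to 3.40), with summits 31 bp apart. It had a peak in all 8 HSF lists, at 35.9 CPM in HSF1 and 21.0 CPM in HSF2 of heat-treated cycling cells and at 22.2 CPM in HSF1 and 7.24 CPM in HSF2 of heat-treated mitotic cells. IgG had a peak there in heated cells only, at 4.84 CPM in mitotic and 5.42 CPM in cycling cells. Chromosome 6 is known to carry the inducible HSP70 genes; whether this region is one of their promoters was not read here.

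In 2 regions both factors had a peak in all 4 conditions and IgG in none, out of the 71 HSF1 peaks that overlapped a peak of all other 7 HSF lists; 34 of those 71 had a peak in all 4 IgG lists as well. At chr11:122932548-122933363 HSF1 had 2.43 CPM (1.36 to 4.01, 15 tags, fold 2.82) and HSF2 2.57 CPM (1.82 to 3.53, 38 tags, fold 8.10), a ratio of 0.947 (0.484 to 1.76), with summits 48 bp apart. The level in heat-treated cycling cells was 7.77 CPM for HSF1 and 5.75 CPM for HSF2. At chr2:198364711-198365321 HSF1 had 1.95 CPM (1.01 to 3.40, 12 tags, fold 3.52) and HSF2 1.89 CPM (1.26 to 2.74, 28 tags, fold 5.99), a ratio of 1.03 (0.476 to 2.09), with summits 174 bp apart. The level in heat-treated cycling cells was 9.62 CPM for HSF1 and 7.19 CPM for HSF2, and in heat-treated mitotic cells 9.48 CPM for HSF1 and 1.98 CPM for HSF2. Neither region differed between HSF1 and HSF2 of non-treated mitotic cells beyond counting error, though the intervals allow a difference of about 2-fold either way. They are the 2 shared regions among the 10 highest folds without mitotic IgG in each list, and the first 2 of those in the HSF2 list.

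As a set, shared regions without a mitotic IgG peak had about as few tags as the whole HSF1 list. Of the 10 with most HSF1 CPM, 5 were on chromosome 22 and 7 lay inside a run. An example in the chromosome 22 run is chr22:23197041-23200712, with 15.2 CPM in HSF1 and 22.5 CPM in HSF2. Outside the runs and with more tags than most, chr21:11114364-11117149 had 11.0 CPM in HSF1 and 10.1 CPM in HSF2. Cycling IgG had a peak there too, at 8.74 CPM without and 7.21 CPM with heat, and HSF1 of heat-treated cycling cells had 20.4 CPM. Over all 287 the median was 10.0 HSF1 tags, and 135 (47.0%) had 8 or 9 tags. In the whole HSF1 list the median was 9 tags, and 50.4% had 8 or 9. No peak of a heat-treated HSF list overlapped 124 of the 287, and 3 overlapped all 4 heat-treated HSF lists. By comparison, 176 of the 1541 shared HSF1 peaks with a mitotic IgG peak overlapped none of those lists and 153 all 4. Of the 1826 HSF1 peaks with neither HSF2 nor IgG, 1554 overlapped none and 3 all 4. Among the 287, 57 had summits within 100 bp. Of these 57, 26 overlapped none of those lists and 1, the region at chr11:122932548-122933363, overlapped all 4. At chr16:908882-909855, chosen after its values were seen, HSF1 had 2.43 CPM and HSF2 0.812 CPM, a ratio of 3.00 (1.31 to 7.01), and 5 other HSF lists but no IgG list had a peak.

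**Figure D5:**
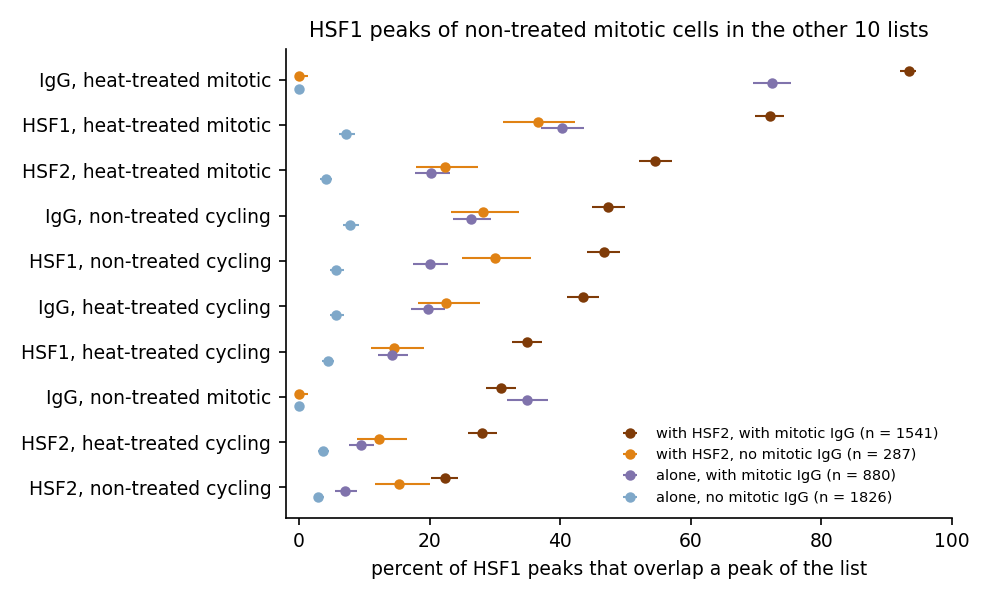
Percent of HSF1 peaks of each class that overlap a peak of each of the other 10 lists, with Wilson intervals as horizontal lines. The values in the 2 mitotic IgG lists follow from how the classes are defined; in the other 8 lists shared peaks with a mitotic IgG peak have from 22.3% in HSF2 of non-treated cycling cells to 72.1% in HSF1 of heat-treated mitotic cells, and HSF1 peaks with neither have at most 7.83%.

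The shared peaks were set against the cycling lists, which the classes do not use and which differ in length: in non-treated cells 4718 peaks for HSF1, 875 for HSF2 and 15758 for IgG, and in heat-treated cells 6447, 4315 and 4377 in the same order. Of the 1541 with a mitotic IgG peak, 46.7% had a peak in HSF1, 22.3% in HSF2 and 47.4% in IgG of non-treated cycling cells. In heat-treated cycling cells the shares were 34.9% in HSF1, 28.1% in HSF2 and 43.5% in IgG. Of the 287 without a mitotic IgG peak, 30.0% had a peak in HSF1 of non-treated cycling cells (25 to 35.5%), 15.3% in HSF2 and 28.2% in IgG of those cells (23.3 to 33.7%). HSF1 of heat-treated mitotic cells shared most with that set among the HSF lists, 36.6% (31.2 to 42.3%).

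HSF1 peaks with neither HSF2 nor mitotic IgG numbered 1826 (40.3% of the list). Of these, 1329 (72.8%) had 8 or 9 tags, the lowest counts of the list, against 50.4% of the whole list. No other list had a peak at 1393 of them (76.3%). In the whole list 32.7% had no peak in the 10 lists other than HSF2 of these cells. The class leaves out peaks with HSF2 or mitotic IgG, which raises its share. The 4 of most CPM outside chromosome 8 lay in the chromosome 22 and 9 runs, led by chr22:23141896-23146823 with 18.3 CPM (113 tags, fold 0.570) and chr9:133893460-133897852 with 14.8 CPM (91 tags, fold 0.540). Non-treated cycling IgG had a peak at chr22:23141896-23146823 too, at 19.4 CPM. By fold the first was chr2:10675905-10676608, with 2.27 CPM (14 tags, fold 3.87), which had a peak in 1 other list, IgG of heat-treated cycling cells.

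HSF2 peaks with neither HSF1 nor mitotic IgG numbered 13968 (70.3% of the list). Of these 9585 (68.6%) had 12 or 13 tags, the lowest counts of that list, and 12526 (89.7%) had a peak in no other list. In the whole HSF2 list 59.2% had those counts, and 63.5% had no peak in the 10 lists other than HSF1 of these cells. The class leaves out peaks with HSF1 or mitotic IgG, which raises its share. HSF2 of heat-treated mitotic cells, the same antibody in the same cell state, had a peak at 3.33% of them (3.04 to 3.64%). IgG of non-treated cycling cells had one at 3.21% (2.93 to 3.51%). These lists held 8270 and 15758 peaks and had a peak at 10.7% and 7.93% of the whole HSF2 list. The peaks of most CPM were chr4:49265446-49269032 with 9.13 CPM (fold 0.95) and chr22:22256381-22260123 with 8.79 CPM (fold 1.43). Non-treated cycling IgG had a peak at the chromosome 4 region, at 15.7 CPM. A region of high HSF2 fold without HSF1 was chr11:118306553-118307395, with 2.98 CPM in HSF2 (44 tags, fold 11.6). HSF2 had a peak there in heat-treated mitotic cells (1.84 CPM, fold 14.1) and heat-treated cycling cells (1.90 CPM, fold 12.8), no HSF1 list had one, and heat-treated mitotic IgG had 0.723 CPM (13 tags, fold 3.17).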

How the data were processed

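Peak lists of 12 ChIP-seq libraries were used, and the 2 input libraries entered only as control of the lists. The submitters' processing notes name Bowtie, hg19 and MACS 1.4. MACS 1.4.1 made the lists, per the file headers, at d of 200 bp, a p cutoff of 1e-05 and local background over 1000 and 10000 bp. Per the file headers, duplicates were capped at 1 tag per position in HSF1 and IgG of non-treated mitotic cells and at 2 in HSF2 and heat-treated mitotic IgG. The tag counts per peak, the score (minus 10 times log10 of the p-value), the fold as a ratio to input and the FDR in percent were used as deposited by the authors.

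Kept tags were read from the headers. Lists were joined by overlap of at least 1 bp, and the partner is the overlapping peak of nearest summit. Shares have Wilson intervals, medians intervals from order statistics, tags exact Poisson intervals and ratios of CPM exact binomial intervals. With 1 library per group nothing was tested. PCR duplicates left in the tags are not independent molecules, so the intervals cover counting error only.

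Named regions are the 10 of highest fold per list, with and without mitotic IgG, the 10 shared regions of most HSF1 CPM, with and without mitotic IgG, the 5 of most CPM in each factor alone without mitotic IgG and the 10 windows of 1 Mb with most shared peaks; others are said to be chosen later. The members, rules and alternatives were chosen with earlier results of these data known. Overlap was tested on simulated data, with 800 of 800 planted pairs found among 2000 simulated peaks, and counts were equal to those of bedtools in 22 of 22 pairs of lists. The tools were bedtools 2.31.1, scipy 1.17.1, pandas 2.3.3, numpy 2.4.6, matplotlib 3.10.9 and Python 3.11.15. Promoters and heat shock elements were not analysed here, because the gene tables at hand are of GRCh38.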

Additional observations from a re-analysis of the deposited data

How the results depend on the processing

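The share of HSF1 peaks with an HSF2 peak (40.3%) was 14.5% with 50% reciprocal overlap, 9.77% with summits within 100 bp, 31.3% with a score of at least 100 and 27.6% with HSF2 limited to as many peaks as HSF1, by score. The share of HSF2 peaks with an HSF1 peak (7.12%) was 3.30%, 2.23%, 9.49% and 18.7% under the same settings and 6.61% with an FDR of at most 5%. The IgG share of shared HSF1 peaks (84.3%) was 87.1% with summits within 100 bp, 89.1% by score, 89.9% at equal length, 90.8% with all 4 IgG lists and 26% with non-treated mitotic IgG alone, a list of 2373 peaks. The share of HSF1 peaks without IgG that had HSF2 (13.6%) was 5.06% by reciprocal overlap, 2.70% by summits, 7.17% by score, 5.96% at equal length, 36.0% with the non-treated IgG alone and 9.51% with all 4 IgG lists. The summit distance without IgG (364 bp) was 125 bp by reciprocal overlap, 490 bp by score and 696 bp at equal length.

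The log2 tag ratio (-0.75) turned round to 0.28 per kb of peak and 0.19 in pairs with widths within 1.5-fold, and was 0.03 by reciprocal overlap, with an interval that includes 0 (-0.01 to 0.08). It was -0.12 by summits, -0.61 with the FDR limit, -1.21 at equal length, -1.02 with total in place of kept tags and -0.32 without IgG. The share in 10 windows (44.0%) was 19.1% by reciprocal overlap, 18.3% by summits, 41.4% with the FDR limit, 49.9% at equal length and 52.9% with windows of 5 Mb. Without the chromosome 22 run, which like the one on widths was added once the values had been seen, the 7 values were 32.0%, 5.07%, 84.1%, 9.46%, 220 bp, -0.26 and 16.6%. Reciprocal overlap drops pairs of unlike width by construction, and the causes of the other shifts were not tested. Regions near 8 HSF1 or 12 HSF2 tags are at the limit of these depths. No paired analysis was possible because each group has 1 library and replicate numbers only name it.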
